A study of Mus musculus with 2 samples.

Results

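The clustered histone genes supply most of the histone protein that a cell packs onto newly copied DNA. They were taken as every gene whose symbol starts with Hist1h, Hist2h, Hist3h or Hist4h, which gave 67 of the 32285 genes listed. By the protein they encode, 6 members belong to H1, 18 to H2A, 18 to H2B, 12 to H3 and 13 to H4. In mm10, Hist1 holds 54 members on chromosome 13 (21715763 to 23934851), Hist2 holds 10 on chromosome 3 (96219865 to 96270132), Hist3 holds 2 on chromosome 11 (58948920 to 58956830) and Hist4 is 1 gene on chromosome 6 (136801553 to 136804415). The genes were singled out with their levels in each cell class known, so those levels are given as a description, with no test.

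Cells were sorted from mouse brain as CD45low CD11b+, a gate for microglia, the macrophages resident in the brain, that can also take other myeloid cells. Disc1 LI/LI mice carried the locus impairment allele of the scaffold gene Disc1 on both chromosomes, and Disc1 WT/WT mice were their wild-type littermates. All were males of 23 weeks, the brains of 6 mice per genotype were pooled into 1 library, and both pools were dissociated with actinomycin D, which blocks transcription. With 1 library per genotype no test between genotypes was possible. All intervals are 95% exact intervals for counting error only, which leave out the spread between mice and any difference in library preparation.

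Barcodes with under 200 genes or over 10% of counts from mitochondrial genes were dropped, which left 7032 of 7038 for Disc1 WT/WT and 7817 of 7834 for Disc1 LI/LI, and 12 barcodes occurred in both libraries. The kept cells held 33591758 and 47689834 unique molecular identifiers (UMIs), each standing for 1 captured transcript. Levels are in CPM, the UMIs of a gene per 1000000 UMIs of the cells summed. Disc1 was read at 19.1 CPM in Disc1 WT/WT, against 0.461 in Disc1 LI/LI. Cycling cells were those with a UMI of at least 3 of Mki67, Top2a, Cenpf, Birc5, Ube2c, Pbk and Cdk1. Among the rest, microglia had at least 0.5% of their UMIs in P2ry12, Gpr34, Tmem119, Siglech, Fcrls and Olfml3, neutrophils had at least 3% in S100a8 and S100a9, and the remainder were called other cells. Disc1 WT/WT gave 6159 microglia, 103 neutrophils, 54 cycling and 705 other cells, and Disc1 LI/LI gave 1948, 3332, 643 and 1837. The 11 and 57 cells that met both the microglia and the neutrophil rule were set apart.

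A nucleosome winds DNA around an octamer of H2A, H2B, H3 and H4, and the linker histone H1 sits where the DNA enters and leaves. Most clustered genes are switched on in S phase, when DNA is copied. Their mRNAs usually end in a stem-loop, bound by the protein SLBP, instead of a poly(A) tail, and decay when replication stops. Some members also give polyadenylated transcripts, in cells that no longer divide among others. The libraries captured RNA by its poly(A) tail and counted its 3′ end, so the values concern transcripts that could be primed in this way, and they are not divided by gene length.

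The histone stem-loop motif was found on the sense strand of the annotated transcripts (GENCODE M21) of 44 of the 67 members. Sites of 6 genes that lead a histone class are shown because the annotated transcripts go on for very different lengths after nearly the same motif, which is in capitals and written as DNA. The 2 outer pairs of the stem, the CTTTT and the AG were fixed in the search, and the remaining letters were free.
Hist1h1e: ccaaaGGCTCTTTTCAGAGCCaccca
Hist3h2a: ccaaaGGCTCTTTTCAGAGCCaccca
Hist1h2ae: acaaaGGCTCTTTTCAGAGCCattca
Hist1h2ap: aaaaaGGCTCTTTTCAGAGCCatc
Hist1h3c: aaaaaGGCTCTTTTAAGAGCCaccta
Hist1h4d: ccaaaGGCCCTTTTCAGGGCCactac
The annotated transcript ended 3 bases after the motif in Hist1h2ap, 74 bases after it in Hist1h3c and 151 in Hist1h2ae. It went on for 770 bases in Hist1h4d, 1153 in Hist1h1e and 1643 in Hist3h2a. No motif lay in the annotated transcripts of Hist1h1b and Hist1h2bc.

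RefSeq promoters (build GRCm38.p6) were matched for 61 members. The 250 bases before the start site are shown for a pair of linker genes, Hist1h1b of dividing cells and Hist1h1e of all cell classes, and for a pair of H2A genes, Hist3h2a of microglia and Hist1h2ae of dividing cells. Capitals mark the motifs searched on both strands.
Hist1h1b (chr13:21780626-21780875, minus strand): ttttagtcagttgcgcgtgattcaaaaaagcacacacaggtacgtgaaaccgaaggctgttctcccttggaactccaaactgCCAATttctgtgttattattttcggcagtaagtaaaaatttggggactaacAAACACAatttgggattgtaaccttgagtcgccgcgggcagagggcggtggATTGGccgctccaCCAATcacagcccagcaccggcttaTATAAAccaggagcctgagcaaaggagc
Hist1h1e (chr13:23622559-23622808, minus strand): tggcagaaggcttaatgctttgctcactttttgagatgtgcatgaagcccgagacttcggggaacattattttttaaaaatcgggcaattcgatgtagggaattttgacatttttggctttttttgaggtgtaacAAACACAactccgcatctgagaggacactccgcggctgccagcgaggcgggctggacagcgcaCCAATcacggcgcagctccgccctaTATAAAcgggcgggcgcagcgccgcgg
Hist3h2a (chr11:58954435-58954684, plus strand): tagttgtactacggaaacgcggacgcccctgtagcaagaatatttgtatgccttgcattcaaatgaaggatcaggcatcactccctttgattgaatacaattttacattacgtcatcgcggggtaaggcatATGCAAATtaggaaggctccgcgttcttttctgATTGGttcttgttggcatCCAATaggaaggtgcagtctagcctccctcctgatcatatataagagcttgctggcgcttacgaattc
Hist1h2ae (chr13:23571221-23571470, minus strand): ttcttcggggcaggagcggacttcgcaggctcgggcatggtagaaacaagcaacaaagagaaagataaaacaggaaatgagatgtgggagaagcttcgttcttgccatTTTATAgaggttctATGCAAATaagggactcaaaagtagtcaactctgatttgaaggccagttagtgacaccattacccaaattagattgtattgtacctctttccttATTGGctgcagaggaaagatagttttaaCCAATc
The motifs were CCAAT, the H1 box AAACACA, the TATA box TATAAA and the octamer ATTTGCAT, none of which contains another. Shares were counted over whole promoter entries, which hold the 250 bases before the start site and also bases after it. Motifs counted can thus lie outside the windows shown. The H1 box stood in 5 of 6 H1 promoters, against 7.14% of all 27025 promoters. The octamer stood in 7 of 17 H2A and 6 of 16 H2B promoters and in none of H1, H3 or H4, against 1.75% of all. Promoters of neighbouring H2A and H2B genes can overlap on opposite strands, so the same octamer can count for both classes. This was so for Hist1h2ae with Hist1h2bg, Hist1h2ah with Hist1h2bk and Hist1h2aa with Hist1h2ba. CCAAT stood in every matched H1, H2A, H2B and H3 promoter and in 3 of 12 H4 promoters, against 37.9% of all, and TATAAA in 57.4% of member promoters against 14.2%. By exact match, the window of Hist3h2a held the CCAAT box and the octamer, and that of Hist1h2ae the CCAAT box, the TATA box and the octamer. Near its end the Hist3h2a window also reads TATATAAG, which the exact search for TATAAA left out. The Hist1h2ae window takes in the start of Hist1h2bg, an H2B gene on the other strand, at 23571396. The TATA box and octamer marked for Hist1h2ae also lie in the window of Hist1h2bg, and which gene they serve was not tested.

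Of the 67 members, 63 had a UMI in the kept cells, 42 had at least 200 and 19 at least 1000. Hist1h2aa, Hist1h2ba, Hist1h2bq and Hist1h4m were at 0. The members held 123612 UMIs in all, 59.0% of them in Hist1h1b, Hist1h1e, Hist1h2ae, Hist1h4d and Hist1h2ap, and 72.1% in cycling cells. The last share differed between the libraries. Cycling cells held 24.7% and microglia 66.9% of the histone UMIs of Disc1 WT/WT, against 82.9% and 3.76% in Disc1 LI/LI.

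Cell classes were compared within each library to show where the genes were read. Cycling cells stood far above all others. The members summed to 528 (519.7 to 536) CPM in Disc1 WT/WT microglia and 464 (449 to 479) in Disc1 LI/LI microglia. Neutrophils gave 587 (523 to 656) and 475 (465 to 486), and other cells 509 (484 to 535) and 494 (481 to 507). Cycling cells gave 7869 (7666 to 8077) and 7002 (6955 to 7049.8). The 3 classes of non-cycling cells thus lay close to each other, and the log2 ratio of cycling cells over microglia was 3.90 (3.85 to 3.94) in Disc1 WT/WT, against 3.92 (3.87 to 3.96) in Disc1 LI/LI.

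**Figure D1:**
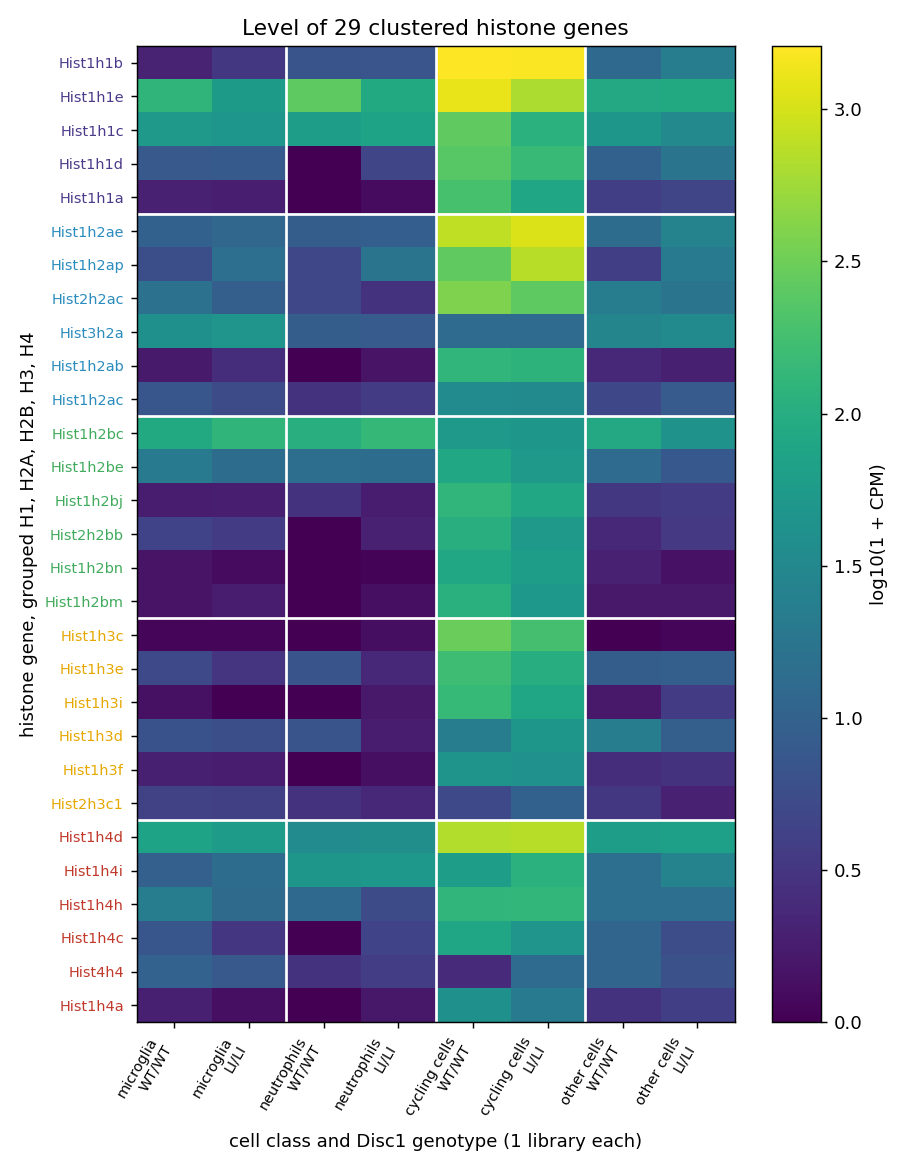
Levels of 29 clustered histone genes (rows, grouped by histone class) in each cell class and genotype (columns, 1 library each), as log10 of 1 plus CPM. Most genes are highest in the cycling columns, whereas Hist3h2a and Hist1h2bc are higher in microglia.

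Single members were compared where both sums held at least 10 UMIs together. In Disc1 WT/WT, 46 of 53 members were more than 2-fold higher in cycling cells than in microglia, beside 15.0% of 12912 genes, and 3 were more than 2-fold lower, beside 28.7%. In Disc1 LI/LI, 53 of 58 were more than 2-fold higher, beside 17.1% of 12561 genes, and 2 were lower, beside 38.5%. The median member had a log2 ratio of 4.95 in Disc1 WT/WT, against 4.51 in Disc1 LI/LI, and the median gene −0.33 and −0.57. By class the ratio ran from 5.50 (5.32 to 5.68) and 5.16 (4.89 to 5.44) for H3 down to 2.55 (2.41 to 2.68) and 1.63 (1.54 to 1.72) for H2B.

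Among the linker histones, cycling cells added Hist1h1b to the genes that non-cycling cells read. Hist1h1b was read at 1.03 and 2.33 CPM in microglia of Disc1 WT/WT, then of Disc1 LI/LI, an order kept in all pairs below, and at 1615 and 1538 in cycling cells. Its log2 ratio of cycling cells over microglia was 10.62 (10.10 to 11.19) and 9.36 (8.72 to 10.10). It held 45.4% and 61.0% of the H1 UMIs of cycling cells. In microglia Hist1h1e held 67.3% and 48.5% of H1 UMIs and Hist1h1c 27.8% and 42.2%. Both were also higher in cycling cells, Hist1h1e by 3.33 (3.22 to 3.43) and 3.56 (3.42 to 3.70) and Hist1h1c by 2.38 (2.16 to 2.60) and 1.22 (1.05 to 1.39). Hist1h1d (5.08 and 4.38) and Hist1h1a (7.56 and 6.52) lay between these and Hist1h1b. The testis linker gene Hist1h1t had 11 UMIs in all.

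In H2A the leading genes of microglia and of cycling cells ran in opposite directions. Hist3h2a was read at 39.7 and 46.0 CPM in microglia and at 12.4 and 12.1 in cycling cells, log2 ratios of −1.67 (−2.81 to −0.74) and −1.93 (−2.21 to −1.65). Hist1h2ae was read at 8.91 and 10.6 in microglia and 791 and 1089 in cycling cells, log2 ratios of 6.47 (6.26 to 6.69) and 6.69 (6.38 to 7.01). Hist3h2a held 48.2% and 51.5% of the H2A UMIs of microglia, and Hist1h2ae held 43.8% and 45.3% of those of cycling cells, with Hist1h2ap (14.7% and 30.8%) and Hist2h2ac (21.4% and 10.6%) next. Hist2h2ac was the second of these in Disc1 WT/WT, whereas Hist1h2ap was the second in Disc1 LI/LI.

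In H2B, Hist1h2bc alone held 71.3% and 82.1% of the UMIs of microglia and 81.2% and 87.3% of those of neutrophils. It was lower in cycling cells than in microglia, with log2 ratios of −0.69 (−1.19 to −0.24) and −1.37 (−1.52 to −1.22), and there Hist1h2bj led with 18.2% and 17.2%. Hist1h2bj itself was higher in cycling cells by 7.30 and 6.57. H3 was the least read class in microglia, at 16.2 and 14.0 CPM, led by Hist1h3d with 33.8% and 35.1%. Hist1h3c, the leading H3 gene of cycling cells with 40.6% and 36.3%, had 3 and 1 UMIs in microglia and 216 and 2167 in cycling cells.

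In H4, Hist1h4d led both in microglia (58.4% and 59.5%) and in cycling cells (65.1% and 67.2%), whereas neutrophils read Hist1h4i most, with 25 of 50 H4 UMIs in Disc1 WT/WT and 49.6% in the other library. Hist1h4i was higher in neutrophils than in microglia by 2.49 (1.83 to 3.08) and 1.97 (1.67 to 2.28) on the log2 scale, and Hist3h2a was lower there, with log2 ratios of −2.36 and −2.67. The Disc1 WT/WT values rest on 25 Hist1h4i and 4 Hist3h2a UMIs in neutrophils. Against microglia, 8 of 42 members in Disc1 WT/WT were more than 2-fold higher in neutrophils, beside 9.91% of all genes, and 23 were lower, beside 65.7%. In Disc1 LI/LI, 4 of 39 were higher, beside 12.2%, and 15 lower, beside 64.3%. Of other cells against microglia, 10 of 44 members were more than 2-fold higher in Disc1 WT/WT, beside 16.3%, and 2 lower, beside 17.4%. In Disc1 LI/LI 16 of 40 were higher, beside 17.6%, and 2 lower, beside 29.4%.

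**Figure D2:**
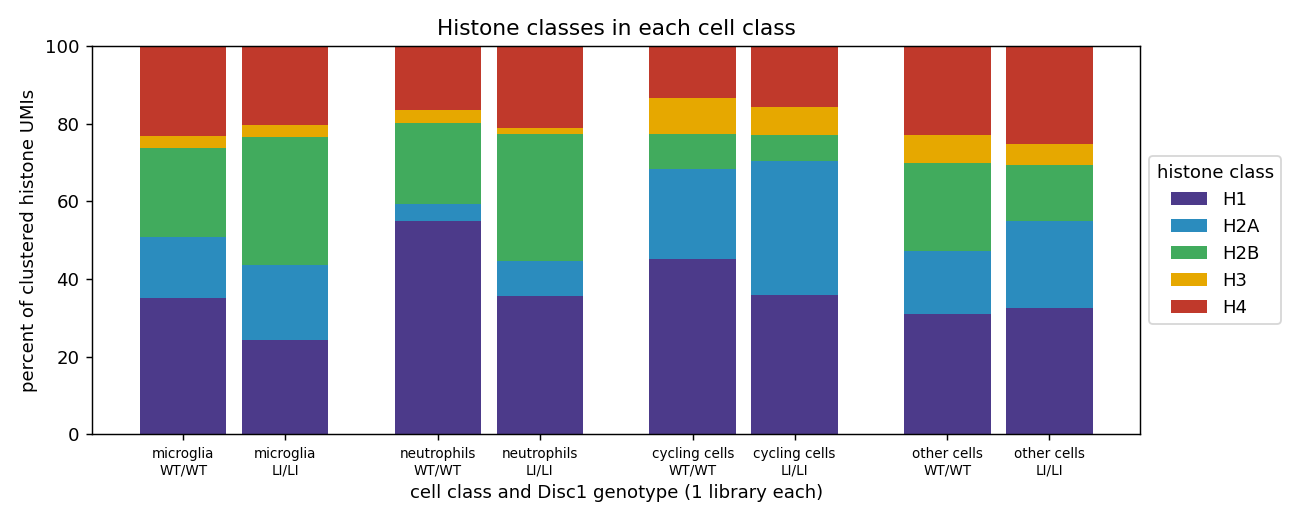
Share of clustered histone UMIs (percent) held by each histone class, by cell class and genotype (1 library each). H2B holds 23.1% and 33.1% of histone UMIs in microglia of Disc1 WT/WT, then of Disc1 LI/LI but 9.07% and 6.80% in cycling cells, and H3 goes from 3.08% and 3.02% to 9.34% and 7.15%.

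The members that microglia read most were largely those with long annotated 3′ ends. The 22 genes whose annotated transcripts ran more than 100 bases past the stem-loop motif held 71.2 and 60.2 percent of microglial histone UMIs and 48.2 and 46.5 percent of those in cycling cells. Their median log2 ratio of cycling cells over microglia was 2.48 and 3.18. The 22 genes that ended sooner had medians of 5.33 and 5.72, and the 23 with no motif in the annotation 6.65 and 6.13, with Hist1h2bc lowest among the latter. These medians cover only the 21 and 21, 15 and 19, and 17 and 18 genes that had at least 10 UMIs. Some genes reached this minimum through cycling cells alone. Single genes overlapped widely between the groups. The limit of 100 bases was set with the values known, the groups hold near-identical copies, and whether an annotated end alters capture was not tested.

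**Figure D3:**
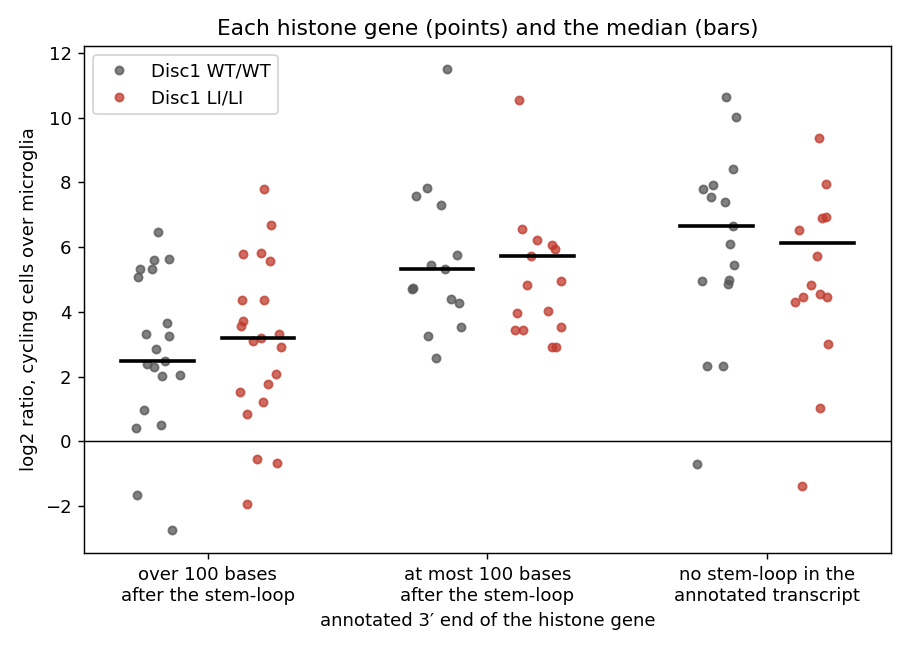
Log2 ratio of cycling cells over microglia for each histone gene with at least 10 UMIs and a UMI in both classes (points), by annotated 3′ end and genotype. Bars are medians, in which genes at 0 in one class take the end of the order, and genes with long annotated ends have the lowest (2.48 and 3.18).

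Cycling cells differed widely from one another. Histone CPM in a cell had quartiles of 789, 1869 and 11129 over the 54 Disc1 WT/WT cells and 939.8, 6285 and 12313 over the 643 Disc1 LI/LI cells, with maxima of 33721 and 34236. More than 10000 were read in 15 Disc1 WT/WT cells (27.8%) and 227 Disc1 LI/LI cells (35.3%), and in no microglial cell or neutrophil. One Disc1 WT/WT cell held 1100 histone UMIs, 19.3% of its class, and without it the class stood at 6649.9 CPM in place of 7869. The highest Disc1 LI/LI cell held 0.769%.

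Cycling cells were ordered by their S-phase share, the UMIs of 23 replication genes over the sum of these and the 7 cycling genes, several of which act in mitosis. The histone level was highest in the middle of this order and lowest where the S-phase share was highest. Only cells with a UMI of at least 3 of the 7 cycling genes entered, so any S-phase cells without these were left out. The order is a share of gene lists and not a measured phase, so the last range does not stand for S phase as such. From the lowest to the highest of 4 equal ranges, Disc1 LI/LI gave 6328, 10512, 9202 and 2090.3 CPM, from 259, 158, 125 and 101 cells. Disc1 WT/WT gave 5719, 13888, 9975 and 747 from only 24, 12, 10 and 8 cells, and 4332, 9895, 7241 and 577 without the cell of most histone UMIs in each range. Hist1h1b in Disc1 LI/LI followed the sum, at 1157, 2430.5, 2256 and 462, whereas Hist1h2bc was nearly level, at 52.6, 48.9, 48.9 and 41.5. Slbp, which encodes the stem-loop binding protein, was read at 117, 273, 358 and 298 and so was still high in the last range. The median depth of the Disc1 LI/LI cells also differed along this order, at 14877, 15121, 20082 and 24644 UMIs, and its part in the pattern was not tested.

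**Figure D4:**
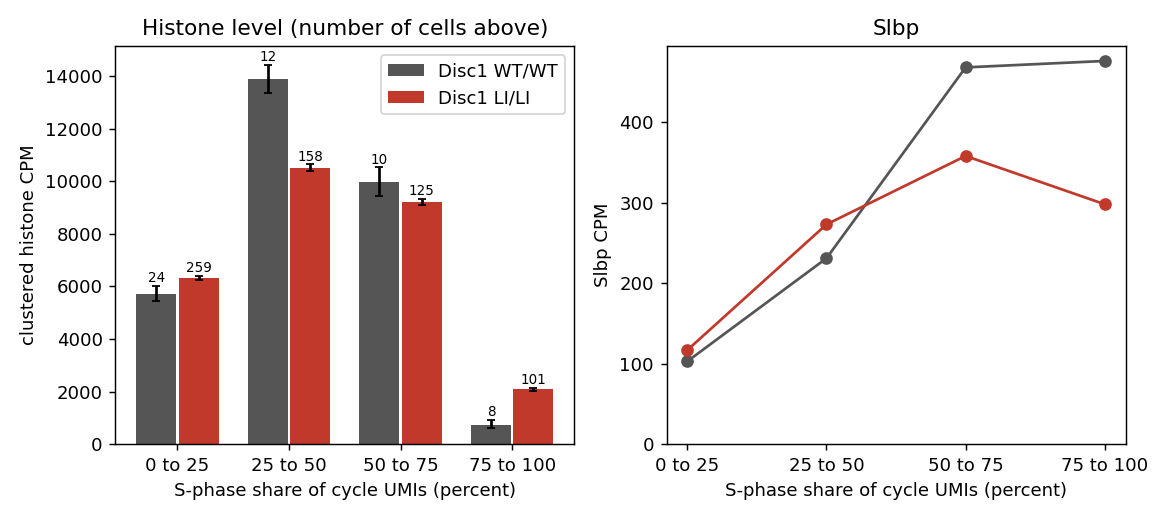
Clustered histone CPM and Slbp CPM in cycling cells, by range of S-phase share (percent), the former as bars with exact 95% counting intervals and the number of cells above, the latter as joined points. In Disc1 LI/LI the histone level is 10512 in the second range and 2090.3 in the last, where Slbp is still at 298.

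Related genes gave the context, to be read beside the 15.0% and 17.1% of all genes that were more than 2-fold higher in cycling cells than in microglia. All 23 S-phase genes were so in both libraries, with medians of 4.22 and 4.07. Pcna, the sliding clamp of DNA polymerase, was read at 43.0 and 39.8 CPM in microglia and 213 and 165 in cycling cells. Of the genes that activate histone genes or process their mRNA, 3 of 15 were more than 2-fold higher in each library, near the share of all genes, and 0 and 2 were more than 2-fold lower, beside 28.7% and 38.5%. Slbp, one of those higher, was read at 89.2 and 77.9 CPM in microglia and 268 and 244 in cycling cells. Of the histone chaperones, which hand histones to DNA, 9 of 18 were more than 2-fold higher in each, with Npm1 at 400.5 and 448 in microglia and 822 and 925 in cycling cells.

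The 4 most read histone genes outside the clusters were each read at a higher level in microglia than any member. H3f3b, a gene for replacement histone H3.3, was read at 1354 and 1424 CPM in microglia and 1829 and 2071 in cycling cells. H3f3a, the other such gene, was read at 609.9 and 796 and at 1956 and 2887, and H2afz, for the variant H2A.Z, at 435 and 546 and at 3149 and 3972. More than 2-fold higher in cycling cells were 8 of 10 in Disc1 WT/WT and 8 of 11 in Disc1 LI/LI, with medians of 2.43 and 2.20.

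The genotypes were then compared within each cell class, where ratios are Disc1 LI/LI over Disc1 WT/WT on the log2 scale. The summed level of the members was 528 and 464 in microglia, a ratio of −0.19 (−0.24 to −0.13). It was −0.30 (−0.47 to −0.13) in neutrophils, −0.17 (−0.21 to −0.13) in cycling cells and −0.04 (−0.13 to 0.04) in other cells. Scaling by the trimmed mean of M-values (TMM), which sets the bulk of genes equal, adds 0.13, 0.55, 0.66 and 0.49 to every ratio of these classes. It left −0.06 in microglia and turned the sign in neutrophils (0.25), in cycling cells (0.49) and in other cells (0.45). The cycling ratio was also 0.07 without the cell of most histone UMIs in each library, so no direction is given for the sum outside microglia. Other cells were a remainder of different makeup in each library. Markers of border-associated macrophages summed to 1675 and 102 CPM in other cells, and those of monocytes to 922 and 4016. Genotype and kind of cell cannot be told apart in any ratio of other cells.

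In microglia 4 of 44 members were more than 2-fold higher in Disc1 LI/LI, beside 4.05% of 13087 genes, and 6 were lower, beside 6.25%. The median member stood at −0.18 and the median gene at −0.19. In neutrophils 9 of 29 were higher, beside 14.1%, and 8 lower, beside 23.5%. Of the higher ones 8 had no UMI in Disc1 WT/WT neutrophils, where a count of 0 allows a level of up to 5.79 CPM, among them Hist2h2aa1, Hist1h1d and Hist1h4c. In cycling cells 7 of 57 were higher, beside 8.93%, and 9 lower, beside 31.0%. In other cells 6 of 39 were higher, beside 6.62%, and 3 lower, beside 26.8%. The median member and the median gene stood at −0.30 and −0.51 in cycling cells and at 0.20 and −0.43 in other cells. In microglia the median member thus lay close to the median gene, and the differences were in single members.

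**Figure D5:**
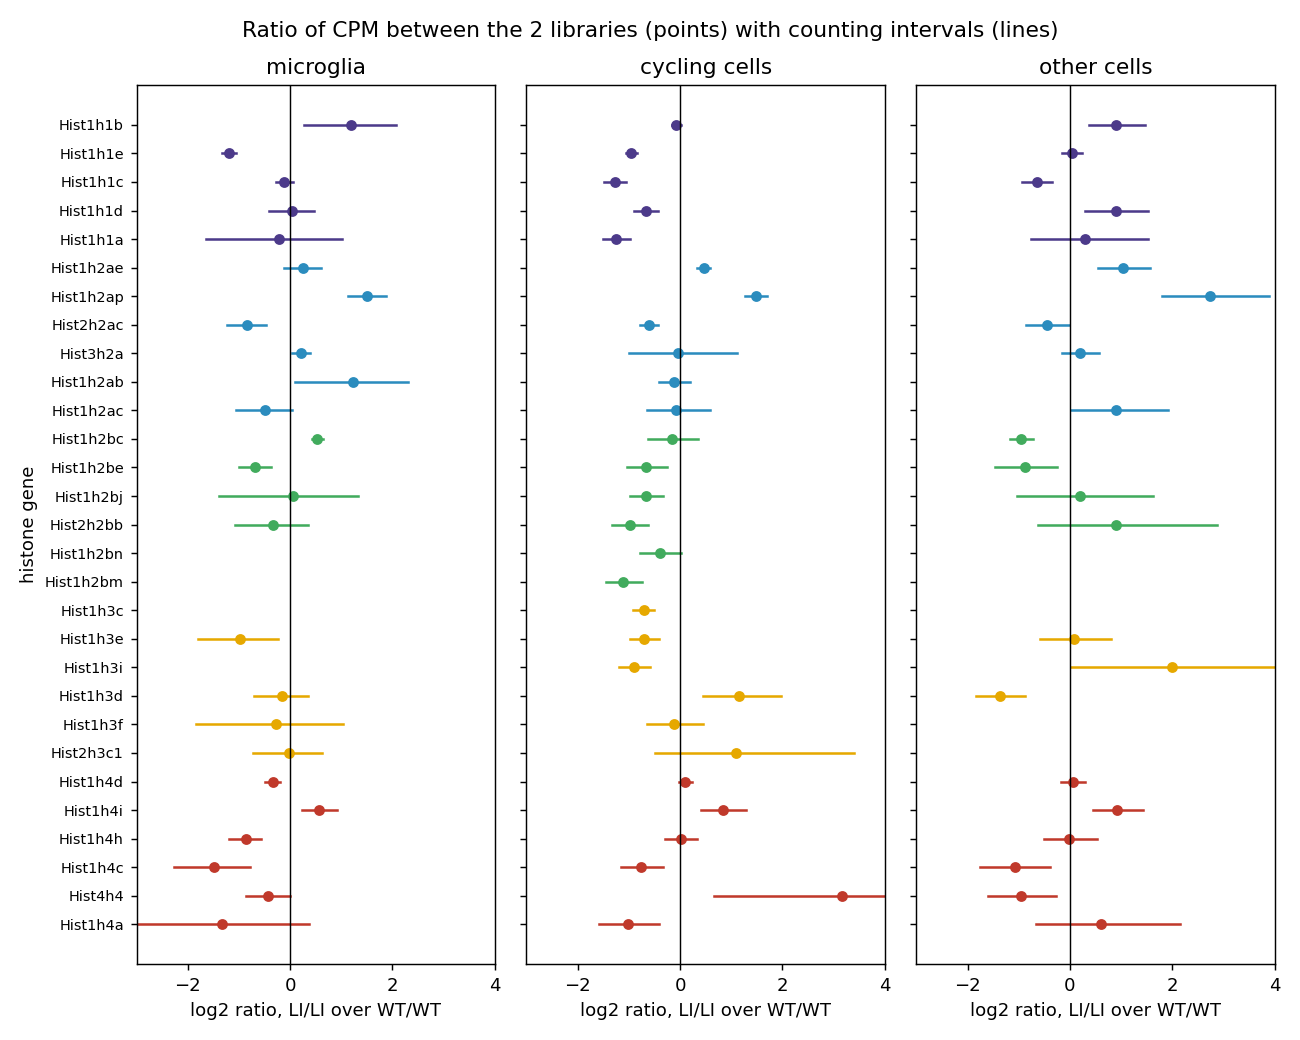
Log2 ratio of Disc1 LI/LI over Disc1 WT/WT for named histone genes by cell class (points, coloured by histone class), with 95% exact counting intervals as lines, cut at −3 and 4. Genes with fewer than 30 UMIs over both libraries, or at 0 in one, are not drawn; Hist1h2ap lies to the right of 0 in every panel and Hist1h1e to the left in microglia and cycling cells.

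Linker histone transcripts were lower in Disc1 LI/LI microglia, and most of this was Hist1h1e. The H1 class was read at 185 and 113 CPM, a ratio of −0.71 (−0.82 to −0.61). Hist1h1e was read at 125 and 54.7, from 3637 and 445 UMIs, a ratio of −1.19 (−1.33 to −1.05) that lay between −1.39 and −1.06 over the alternatives tried. All other members together were read at 403 and 409, a ratio of 0.02 (−0.03 to 0.08). Hist1h1c was read at 51.5 and 47.5 in microglia (−0.11, −0.28 to 0.05), with 0.02 under TMM. Hist1h1b, scarce in microglia, was higher there, with a ratio of 1.18 (0.27 to 2.06) that lay between 0.47 and 2.52 over the alternatives. It was read from 30 and 19 UMIs, in 17 of 6159 and 19 of 1948 cells. The interval treats UMIs of the same cell as separate.

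Hist1h1e was lower in 3 of the 4 cell classes. It was read at 255 and 87.5 in neutrophils, a ratio of −1.54 (−1.80 to −1.27), and at 1249.9 and 645 in cycling cells, a ratio of −0.95 (−1.05 to −0.85). Other cells gave 85.3 and 87.4, a ratio of 0.03 (−0.16 to 0.24). In neutrophils the ratio was −0.06 when cycling cells that met the neutrophil rule were counted as neutrophils. The exons of Hist1h1e overlap those of Hist1h2be, an H2B gene, on the same strand, and 99.1% of the 50-base words at its transcript end also occur in another gene. Hist1h2be was read at 20.0 and 12.5 in microglia (−0.68, −0.99 to −0.37), and both genes together gave −1.11 (−1.24 to −0.98).

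Hist1h2ap, an H2A gene, was higher in Disc1 LI/LI in all 4 cell classes. It was read at 4.93 and 14.0 in microglia, from 144 and 114 UMIs, a ratio of 1.51 (1.14 to 1.87). Cycling cells gave 265 and 740.1, a ratio of 1.48 (1.27 to 1.69), and other cells 2.95 and 19.8, a ratio of 2.74 (1.79 to 3.89). The neutrophil values of 3.86 and 16.3, a ratio of 2.08 (0.21 to 5.13), rest on 2 Disc1 WT/WT UMIs. The sign held under the 12 alternatives in each class. Hist1h2ap shares 93.1% of its 50-base end words with other genes, above all Hist1h2ao (14 UMIs) and Hist1h2ag (49 UMIs), so which copy was read is uncertain.

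Among the other H2A genes, Hist3h2a was read at 39.7 and 46.0 in microglia (0.21, 0.04 to 0.38), and its exons overlap Trim17 on the same strand. Hist1h2ae was read at 791 and 1089 in cycling cells (0.46, 0.34 to 0.58) and at 12.8 and 26.3 in other cells (1.04, 0.55 to 1.56), and its interval in microglia included 0. Hist2h2ac was lower in microglia, at 14.8 and 8.23 (−0.85, −1.24 to −0.47). In cycling cells it was read at 387 and 254 (−0.61, −0.79 to −0.43), which turned to 0.05 under TMM. Of the 3 most read H2A genes of cycling cells, Hist1h2ae and Hist1h2ap were thus higher in Disc1 LI/LI, and Hist2h2ac was lower before TMM scaling. Hist1h2ab was read at 0.685 and 1.60 in microglia (1.22, 0.09 to 2.30, with 0.34 when microglia and neutrophils were assigned before cycling cells) and Hist1h2ac at 6.20 and 4.42 (−0.49, −1.05 to 0.03). Hist2h2ab was read at 18.0 and 5.46 in cycling cells (−1.72, −2.59 to −0.73, between −3.57 and −1.06 over the alternatives), and Hist1h2ag had no UMI in Disc1 WT/WT cycling cells and 42 in Disc1 LI/LI. As a class, H2A was read at 1806 and 2401 in cycling cells (0.41, 0.33 to 0.49) and 82.3 and 111 in other cells (0.43, 0.23 to 0.63), and the sign held under the 12 alternatives in both.

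H2B followed its leading gene. Hist1h2bc was higher in Disc1 LI/LI microglia, at 87.0 and 126 (0.53, 0.43 to 0.64), and in neutrophils, at 100.3 and 136 (0.44, 0.04 to 0.87). In other cells it was lower, at 84.6 and 43.9 (−0.95, −1.17 to −0.72). The class was read at 122 and 153 in microglia (0.33, 0.24 to 0.43) and 114 and 70.9 in other cells (−0.69, −0.88 to −0.51). In cycling cells the interval of Hist1h2bc included 0, and the H2B genes read most there were lower. Hist1h2bj was read at 129.8 and 81.9 (−0.67, −0.97 to −0.34), Hist2h2bb at 106 and 53.7 (−0.98, −1.33 to −0.62) and Hist1h2bm at 108 and 49.9 (−1.11, −1.45 to −0.75). Hist1h2bj turned to 0.08 without the deepest 5% of cells, and TMM adds 0.66 to each of these ratios of cycling cells. Hist1h2bn was read at 80.1 and 60.7 (−0.40, −0.79 to 0.01).

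H3 was scarce outside cycling cells, with 474 and 114 UMIs in microglia. Hist1h3e was read there at 4.08 and 2.09 (−0.97, −1.79 to −0.23) and Hist1h3d at 5.48 and 4.91 (−0.16, −0.70 to 0.35). In cycling cells Hist1h3c was read at 298 and 182 (−0.71, −0.92 to −0.50), Hist1h3i at 141 and 75.5 (−0.90, −1.20 to −0.59) and Hist1h3e at 162 and 99.3 (−0.70, −0.98 to −0.42), all lower in Disc1 LI/LI. Hist1h3c and Hist1h3e did not keep this sign without the deepest cells, and Hist1h3i was then at −0.20. TMM adds 0.66 to each of these ratios of cycling cells. Hist1h3d went the other way, at 22.1 and 49.0 in cycling cells (1.15, 0.44 to 1.97), but was lower in other cells, at 21.7 and 8.44 (−1.36, −1.83 to −0.88, with −0.52 under stricter microglia and neutrophil rules). Hist1h3f (44.2 and 40.6) and Hist2h3c1 (4.14 and 8.90) had intervals that included 0 in cycling cells.

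In H4 the leading gene differed little and smaller ones differed more. Hist1h4d was read at 71.6 and 56.4 in microglia (−0.34, −0.49 to −0.20) and at 689 and 739.9 in cycling cells (0.10, −0.03 to 0.24). Hist1h4i was higher in microglia, at 8.60 and 12.8 (0.57, 0.23 to 0.91), in cycling cells, at 62.1 and 111 (0.83, 0.40 to 1.29), and in other cells, at 13.8 and 26.0 (0.92, 0.45 to 1.42). In neutrophils, where it led the class, the ratio was 0.05 (−0.52 to 0.69). Hist1h4c was lower in the same 3 classes, with ratios of −1.48 (−2.27 to −0.78) in microglia, −0.76 (−1.16 to −0.33) in cycling cells and −1.08 (−1.75 to −0.39) in other cells, the last at −0.37 thinned. In cycling cells, where the median gene stood at −0.51, Hist1h4c was at −0.10 under TMM. Hist1h4h was lower in microglia, with 642 and 98 UMIs (−0.87, −1.19 to −0.56). Hist4h4 had 1 and 147 UMIs in cycling cells (3.16, 0.66 to 8.47) and was read at 9.25 and 6.88 in microglia (−0.43, −0.87 to −0.01, with −1.22 thinned). Hist1h4a was read at 40.1 and 19.7 in cycling cells (−1.02, −1.58 to −0.41), but its ratio was −0.42 without the cell of most histone UMIs in each library and −0.12 without the deepest 5% of cells. Hist1h4b was read at 6.91 and 2.85 (−1.27, −2.64 to 0.44).

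The linker genes of cycling cells differed unevenly. Hist1h1b was read at 1615 and 1538 (−0.07, −0.15 to 0.02). Hist1h1c was read at 268 and 111 (−1.28, −1.49 to −1.05), Hist1h1a at 188 and 78.8 (−1.25, −1.51 to −0.98) and Hist1h1d at 235 and 149 (−0.66, −0.89 to −0.43), the last 3 lower in Disc1 LI/LI. Hist1h1d stood at −0.01 under TMM, and Hist1h1a at −0.14 with each cell thinned to 1000 UMIs. The cycling cells were not of one kind: 22 of 54 met the microglia rule and 2 the neutrophil rule in Disc1 WT/WT, against 6 and 233 of 643 in Disc1 LI/LI. The 9 neutrophil markers, all read in both, summed to 15903 and 144221 CPM in cycling cells. The 6 markers of granulocyte-monocyte progenitors and promyelocytes summed to 2951 and 14388. Genotype and kind of cycling cell cannot be told apart. Cycling cells that met neither rule gave 9698 and 7569.8 histone CPM (−0.36, −0.40 to −0.31), and those that met the microglia rule 4774 and 2948 (−0.70, −0.94 to −0.46). In the latter the interval of H2A included 0, at 1316 and 1112 (−0.24, −0.66 to 0.16). Of the histone UMIs of cells that met the microglia rule, 1 cell held 20.3% in Disc1 WT/WT and 1 cell 53.3% in Disc1 LI/LI. Without these the levels were 4062 and 1697 CPM, a ratio of −1.26, and the H2A ratio was −0.57 (−1.12 to −0.06), from few cells.

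RNA of other cells was gauged in microglia. The 9 neutrophil markers, all read in both libraries, summed to 189 and 1365 CPM there, and the 7 cycling markers to 5.48 and 20.5, with Pbk at 0 in Disc1 WT/WT. Hist1h1b in microglia reached 0.0637% and 0.152% of its level in cycling cells, and Hist1h2ap 1.86% and 1.89%. Hist1h2ap UMIs divided by Hist1h1b UMIs gave 4.80 and 6.00 in microglia but 0.164 and 0.481 in cycling cells. The part of RNA from other cells in these levels was not tested.

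Related genes were also compared between genotypes in microglia, where 4608 of 13087 genes had the higher level in Disc1 LI/LI and 8479 the lower, with a median of −0.19. Of the histone genes outside the clusters 9 of 10 were higher in Disc1 LI/LI, 1 of them more than 2-fold, beside 4.05% of all genes, with a median of 0.35. H3f3a was read at 609.9 and 796 (0.38, 0.34 to 0.42), H2afz at 435 and 546 (0.33, 0.28 to 0.38), H3f3b at 1354 and 1424 (0.07, 0.04 to 0.10) and H2afy, for macroH2A, at 176 and 188 (0.09, 0.01 to 0.18). Of the activation and processing genes 12 of 15 were lower, 1 of them more than 2-fold, beside 6.25% of all genes. Their median was −0.28, close to that of all genes. The gene more than 2-fold lower was Npat, at 33.4 and 14.9 (−1.17, −1.45 to −0.89). Slbp was read at 89.2 and 77.9 (−0.20, −0.32 to −0.07), the cap-binding gene Ncbp2 at 60.2 and 51.7, the cleavage factor gene Cpsf2 at 56.1 and 46.2 and Lsm10, of the U7 particle, at 45.0 and 56.3. The S-phase genes had a median of 0.05, with Mcm3 at 38.5 and 34.4 and Tyms at 15.2 and 20.4. Rrm2, at 0.171 and 0.860, was read from only 5 and 7 UMIs (2.33, 0.46 to 4.33). The chaperones had a median of −0.12, with Atrx at 208 and 156, Nap1l1 at 99.2 and 92.6 and Rbbp4 at 154 and 146. TMM scaling adds 0.13 to each of these ratios and medians, which leaves that of the chaperones near 0.

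Many members are near-identical copies, and their single counts are uncertain. In 38 of the 67 members, which hold 43.9% of the UMIs, more than 50% of the 50-base words in the last 500 bases of the transcript also occur in another gene. Hist1h1b, Hist1h1c, Hist1h4d and Hist3h2a share none. Of the members with few UMIs, 19 had at least 10 but fewer than 200, from Hist2h2be at 187 down to Hist1h3h and Hist1h1t at 11, and Hist1h2ah and Hist2h2aa2 had 7 and 3.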

How the data were processed

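Single-cell libraries were made with 10x Genomics 3′ kits. Different versions of the kit are named without saying which library used which, so a kit difference between the genotypes could not be checked. The submitters' processing notes name Cell Ranger (6.1.2 by the matrix headers), STAR, Seurat 3.0.1 and mm10. The deposited files hold raw UMI counts per gene and barcode from the authors' pipeline, 33601957 in Disc1 WT/WT, against 47731571 in Disc1 LI/LI.

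Members, cell classes and gene lists were chosen with earlier results of these data known. Counts were summed over the cells of a class and divided by all UMIs of the class and scaled to 1000000 (CPM). Levels carry exact Poisson intervals, and log2 ratios exact Clopper-Pearson intervals (95%), for counting error only. Doublets were not removed. A count of 0 was given the upper limit of 3 counts. In medians, genes at 0 in one sum took the end of the order. Named were up to 6 members per histone class with most UMIs (at least 200), the 3 highest and 3 lowest genotype ratios per cell class (at least 30 UMIs, ranked with 0.5 UMIs added) and the 4 genes per list with most UMIs. Npat was named as well, for its ratio in microglia. GENCODE M21 held 32235 of 32285 identifiers. Ratios and intervals were tested on simulated counts drawn independently for each gene. This cannot show how the intervals fare where UMIs are clumped in single cells. Alternatives changed the cell filter, class rules, scaling (TMM, edgeR 4.0.16), totals, depth and gene minimum, and 3 were added after seeing the data. Scripts ran in R 4.3.3 and in Python 3.11.15 with scipy 1.17.1, numpy 2.4.6 and pandas 2.3.3.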

Additional observations from a re-analysis of the deposited data

Results flagged for a closer look

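For 5 members the genotype ratio (log2, Disc1 LI/LI over Disc1 WT/WT) had opposite signs in different cell classes. Each of these ratios had a counting interval that left out 0. Only classes with at least 30 UMIs of a gene were used. Many of the 67 members reached this in fewer than 2 classes and could not be flagged. The share over all genes was not counted. All 5 involved other cells, whose makeup differed between the libraries. The difference between the classes was not tested. Hist1h1d stood at 0.89 in other cells and −0.66 in cycling cells. Hist1h2bc stood at 0.53 in microglia and 0.44 in neutrophils but −0.95 in other cells. Hist1h3i stood at 2.00 (0.02 to 5.12) in other cells, from 2 and 29 UMIs, and −0.90 in cycling cells. Hist1h3d stood at 1.15 in cycling cells and −1.36 in other cells. Hist4h4 stood at 3.16 in cycling cells, from 1 and 147 UMIs, but −0.43 in microglia and −0.95 in other cells.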

How the results depend on the processing

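No paired analysis was possible because each genotype was 1 library of pooled mice. Of 124 values of summed levels and member counts under an alternative, 84 stayed within their counting interval or within 1.5 times the count, 33 moved further and 7 lay across 0 from a reported ratio whose interval left out 0. Of 1480 values of histone classes and single genes, 1253 stayed, 209 moved and 18 lay across 0 in this sense. Among those that stayed or moved, 3 and 110 also had the other sign, from ratios whose interval included 0. The causes were not tested.

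The summed genotype ratio (log2) became −0.06 in microglia under TMM. In neutrophils it became 0.25 under TMM, −0.02 as a mean over cells and 1.64 when microglia and neutrophils were assigned before cycling cells, which also gave 1.04 for H1, 2.44 for H3 and 0.71 for Hist1h3d. In other cells it became 0.45 under TMM. In cycling cells it was −0.36 with that other order of rules, −0.36 without cells meeting more than 1 rule, −0.30 with 4 of 7 cycling genes, 0.49 under TMM, 0.14 thinned to 1000 UMIs and 0.22 as a mean over cells. Of the settings added after seeing the data, it was 0.07 without the cell of most histone UMIs, 0.34 without the deepest 5% of cells and −0.36 in cycling cells meeting neither other rule.

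The log2 ratio of cycling cells over microglia, in Disc1 WT/WT and then Disc1 LI/LI, stayed high throughout. It was 4.12 and 3.96 with the other order, 4.20 and 4.03 without cells meeting more than 1 rule, 4.09 and 3.98 with 4 of 7 genes, 3.97 and 4.46 under TMM, 3.62 and 4.00 thinned, 3.61 and 4.03 as a mean over cells, 3.66 and 3.91 without the top cell, 3.46 and 3.99 without the deepest cells, and 4.20 and 4.03 for cells meeting neither rule.

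Members more than 2-fold apart between genotypes numbered 10 in microglia, 6 with a minimum of 30 UMIs and 22 with 1. In neutrophils they numbered 17, 6 and 46, with 42 under the other order, 8 thinned and 11 without the deepest cells. In other cells they numbered 9, 5 and 20, with 4 thinned. The main counts are of 44, 29 and 39 members tested, with the shares of all genes given above. The number tested and the share of all genes change with the setting too. The counts thus show only how far each setting moves them, not a trait of the histone genes.

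Further such sign changes in cycling cells came under TMM, with 0.16 for H1, 0.07 for H2B, 0.10 for H3 and 0.05 for Hist2h2ac, when thinned, with 0.39 for Hist1h3c, and without the deepest cells, with 0.03 for H1, 0.14 for H3, 0.08 for Hist1h2bj, 0.08 for Hist1h3c and 0.0044 for Hist1h3e. In other cells H3 became 0.10 with microglia at 1% and neutrophils at 5% and 0.04 under TMM, Hist2h2ac 0.05 under TMM and 0.78 thinned, and Hist1h1b −0.12 thinned. The 103 neutrophils and 54 cycling cells of Disc1 WT/WT limit every ratio of those classes.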
